A study of Canis lupus familiaris with 6 samples.

Results

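Canine keratinocytes carried transcripts of some but not most chemokine and interleukin genes, and the most abundant of them were the receptor chains IL20RB and IL13RA1. The genes were chosen by symbol: protein-coding genes named as chemokine ligands (CCL, CXCL, CX3CL), as chemokine receptors (CCR, CXCR) or as interleukins and their receptors (IL followed by a number), leaving out the IL-1, IL-18, IL-33 and IL-36 genes. Of the 35993 genes of the table, 19550 are protein-coding and 110 of these met the rule. They comprise 20 CC chemokine ligands, 9 CXC or CX3C chemokine ligands, 15 chemokine receptors, 34 interleukins, 31 interleukin receptor genes and IL4I1, an interleukin-4-induced enzyme that the symbol rule also takes in.

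Transcripts were measured by RNA-Seq in CPEK cells, an established line of canine epidermal keratinocytes labelled as wild type. Direct treatment with cold atmospheric microwave plasma (CAMP), called dCAMP, was given for 30 s to the cells of 3 libraries, and the gas alone to the cells of the 3 control libraries. All were grown to near confluence in serum-containing medium, received new medium 15 min after exposure, and were collected for RNA after a further 24 h. The comparison asks which transcripts differed between plasma and gas at that single time, and the labels do not say whether the libraries of a group came from separate experiments, so p-values measure only the spread between these libraries.

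Chemokines are small secreted proteins that direct the movement of leukocytes through G protein-coupled receptors. Interleukins act through receptors built of several chains, most of which signal through JAK kinases and STAT factors, while the IL-17 receptor family signals through adaptor proteins to NF-kB. Keratinocytes are known as a source of chemokines in skin and as a target of the IL-4/IL-13, IL-17, IL-20/IL-22 and oncostatin M families.

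The libraries held 43084921 to 54082634 counts assigned to genes. All 12 keratinocyte markers (KRT5, KRT14, TP63 and others) had more than 3 counts in every library, and their summed level was 51942 to 61768 CPM in the gas libraries and 48634 to 51572 CPM in the dCAMP libraries. CPM is the count scaled by the normalized size of its library. The gas libraries stood apart from each other: on the first principal component over all genes tested, which held 71.2% of the variance, gas 1, 2 and 3 lay at -94.1, -23.0 and 21.7, while dCAMP 1, 2 and 3 were placed at 28.6, 33.2 and 33.6. Gas 1 was therefore far from the dCAMP libraries and gas 3 near them, and values without these libraries are given for the members that they move most.

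A gene was taken as detected when each of the 6 libraries had more than 3 counts, the limit that a count of 0 allows for counting error only, which equals 0.0566 to 0.0700 CPM. By this rule 39 of the 110 genes (35.5%) were detected, against 12658 (64.7%) of the protein-coding genes. A further 23 were called trace, with a count in at least 1 library but without more than 3 counts in each of the 6. Of these, 3 were still tested for a difference: IL7, IL13RA2 and IL23R, which had 3 counts or fewer only in gas libraries. No count in any library was found for 48 members (43.6%), against 23.9% of the protein-coding genes. Interleukin receptors were detected most often among the large roles, in 15 of 31 genes, followed by CXC and CX3C ligands in 4 of 9, interleukins in 12 of 34, CC ligands in 4 of 20 and chemokine receptors in 3 of 15.

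The 48 members without counts were spread over ligands, interleukins and receptors. Of the interleukins, IL2, IL3, IL4, IL6, IL9, IL10, IL12B, IL13, IL16, IL17A, IL17C, IL17F, IL19, IL21, IL22, IL26, IL27 and IL31 had 0 counts in all 6 libraries. Among the receptors, the same held for IL2RA, IL2RB, IL2RG, IL3RA, IL5RA, IL9R, IL12RB1, IL17RB and IL31RA. Chemokine receptors without counts included CCR1, CCR3, CCR4, CCR8, CCR9, CXCR3, CXCR5 and CXCR6. The ligands without counts were CCL1, CCL3, CCL4, CCL8, CCL13, CCL16, CCL19, CCL21, CCL23, CCL24, CXCL11 and CXCL13. At this depth a count of 0 shows only that no transcript was detectable, within the limit of 3 counts per library.

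The trace genes that the test did not cover reached at most 21 counts in any library. Their highest counts were 11 for CCL17, 10 for CCL2, 10 for CCL5, 10 for CCL20, 6 for CCL22 and 2 for CCL26 among the CC ligands. The 10 counts of CCL20, which encodes a chemoattractant for CCR6-bearing cells, came from 1 library. The CXC ligands CXCL14, CXCL10 and CXCL12 reached 15, 5 and 4 counts, and the receptors CCR10, CCR6 and CCR7 reached 11, 4 and 2 counts. IL25, IL5 and IL32 reached 21, 14 and 8 counts, and IL10RA, IL12RB2, IL22RA2, IL17REL and IL21R reached 19, 19, 18, 11 and 4 counts.

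Levels were compared between genes by the deposited FPKM, which corrects for transcript length. The members were ordered from IL20RB, with a mean of 37.4 FPKM over the 6 libraries, through IL13RA1 (34.0 FPKM), CXCL16 (22.0 FPKM), IL17RA (21.7 FPKM), CXCL8 (18.8 FPKM), IL6ST (15.5 FPKM) and IL4R (10.2 FPKM). These 7 were the only members with a mean of at least 10 FPKM, and 25 members had a mean of at least 1 FPKM. IL20RB and IL13RA1 lay at the 89.3 and 88.3 percentiles of the protein-coding genes, and the 4 most abundant members made up 49.8% of the summed FPKM of all 110. The median of the 42 members tested was 1.31 FPKM, against 8.71 FPKM for the protein-coding genes tested.

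**Figure D1:**
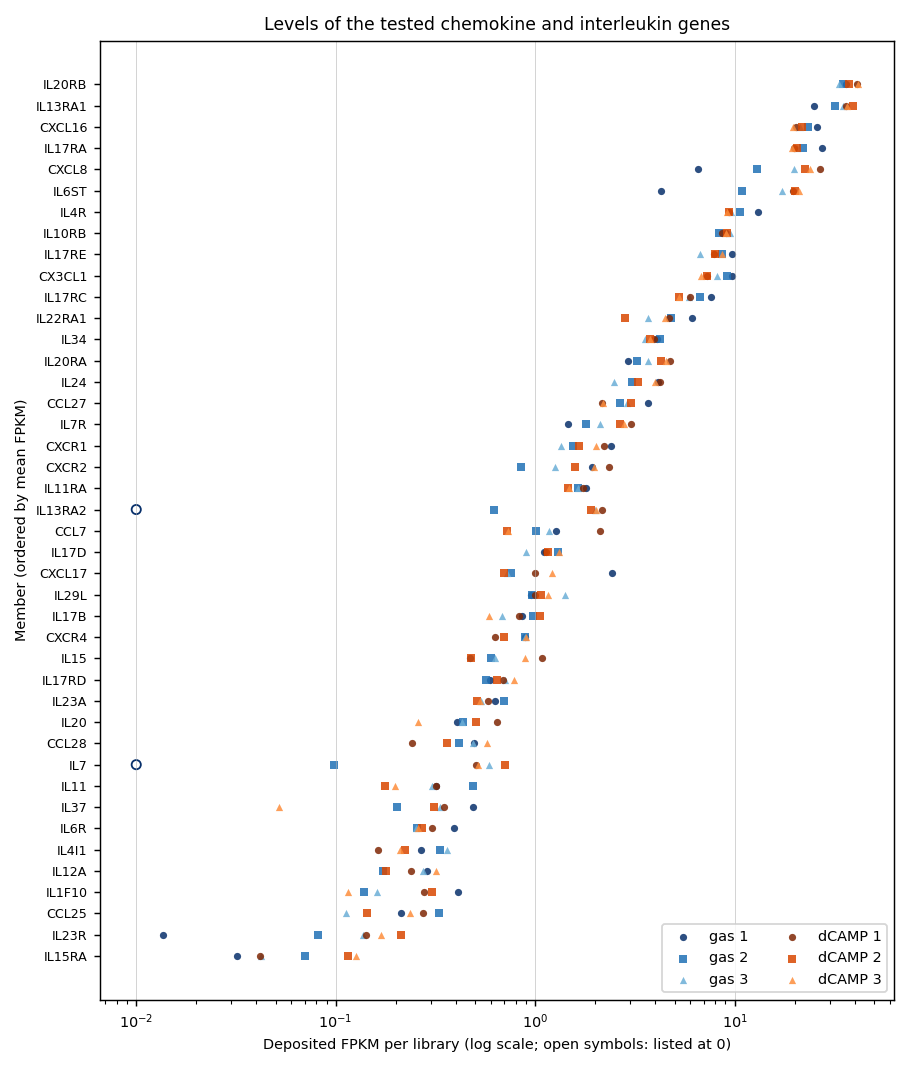
Deposited FPKM (horizontal, log scale) of the 42 members tested, 1 point per library, ordered by the mean over the 6 libraries; open symbols mark libraries listed at 0. Most members have their libraries close together, while gas 1 lies far to the left for CXCL8, IL6ST and IL23R and is listed at 0 for IL13RA2 and IL7.

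Neighbours in this order often did not differ beyond their spread. IL20RB was at 34.7 ± 1.42 FPKM in the gas libraries and 40.0 ± 2.31 FPKM in the dCAMP libraries (SD, n = 3 each), and IL13RA1 was at 30.7 ± 5.06 and 37.3 ± 1.65 FPKM (SD, n = 3 each). CXCL16 and IL17RA likewise overlapped, at 23.5 ± 2.25 and 23.4 ± 3.62 FPKM in the gas libraries (SD, n = 3 each). CXCL8 and IL6ST had the widest spread of the abundant members in the gas libraries, at 13.1 ± 6.65 and 10.8 ± 6.52 FPKM (SD, n = 3 each).

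Of the 110 members, 42 passed the filter on low counts and were tested for a difference between dCAMP and gas with the quasi-likelihood test of edgeR, adjusted by Benjamini-Hochberg over all 14708 genes tested. Log2 fold changes are dCAMP against gas, so that a positive value is higher after plasma. After adjustment 0 of the 42 members passed, as did 0.0% of all genes tested, and the members' adjusted p ranged from 0.221 to 0.996. DESeq2 on all genes with a count called 1 member, IL7R, and 1.48% of all genes. With limma's voom and sample quality weights 22 members were called (52.4%, against 60.8% of all genes), 14 of them higher and 8 lower. Without gas 3, edgeR called 8 of the 44 members then tested (18.2%), against 33.1% of all genes tested in that fit: CXCL8, IL20RA, IL6ST, IL7 and IL7R higher, and CX3CL1, IL17RC and IL4R lower. In that fit the filter on low counts kept IL7 only through the dCAMP libraries, so its call there is not evidence of a difference. In the other 5 fits without 1 library, edgeR called 0 members. The shares of all genes called higher and lower with voom and without gas 3 are not given here. The split of the called members by direction therefore cannot be set against all genes.

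At an unadjusted p under 0.05, which 20.7% of all genes tested reached, there were 7 of 42 members (16.7%). The 5 higher members (11.9%, against 6.81% of all genes) were IL7R, IL20RA, CXCR2, IL20RB and IL12A, and the 2 lower members (4.76%, against 13.9% of all genes) were CX3CL1 and IL4I1. With the prior count of 2 used here, none of them changed at least 2-fold, a rule that 1.09% of all genes met. With edgeR's default prior count IL12A met it, as did 1.31% of all genes. Without gas 3, 14 of 44 members had an unadjusted p under 0.05 (31.8%, against 49.2% of all genes), and without gas 1 it was 9 of 45 (against 20.6%). The number was 2 of 44 without gas 2, 3 of 46 without dCAMP 1, 5 of 46 without dCAMP 2 and 2 of 45 without dCAMP 3, against 8.25%, 8.23%, 9.61% and 6.86% of all genes. Members that were also at least 2-fold apart numbered 6 without gas 3, 1 without gas 1 and 1 without dCAMP 1, against 10.2%, 0.987% and 0.93% of all genes.

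By the plain order of the values, all dCAMP libraries were above all gas libraries for 8 members (19.0%, against 19.0% of all genes tested) and below them for 5 members (11.9%, against 20.9%). With 3 libraries against 3, an exact permutation test cannot go below p = 0.1 for a single gene. The median log2 fold change of the 42 members was 0.00, with 22 positive and 20 negative values, and that of all genes tested was 0.03. By role, the median was -0.10 for CC ligands, -0.26 for CXC and CX3C ligands, 0.16 for chemokine receptors, 0.02 for interleukins and 0.17 for interleukin receptors.

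**Figure D2:**
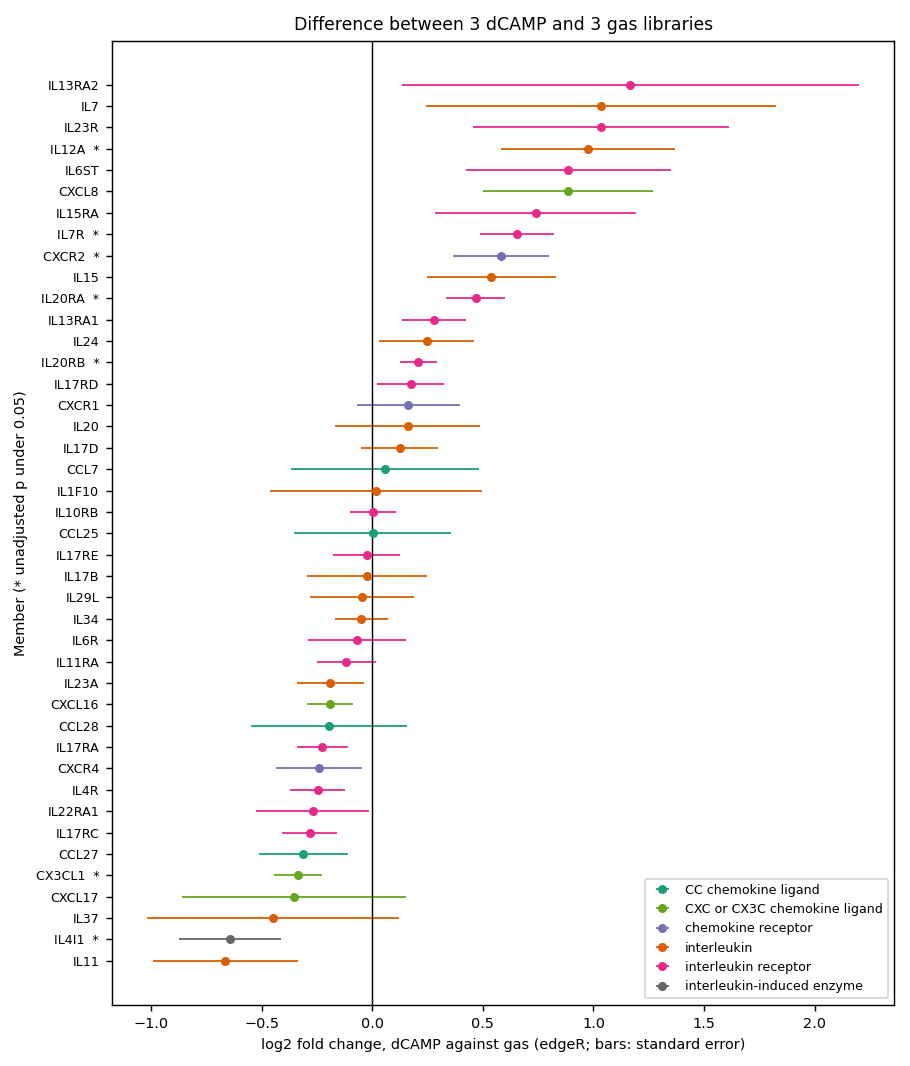
Log2 fold change of dCAMP against gas for the 42 members tested, with the standard error from edgeR's quasi-likelihood test as bars, coloured by role; an asterisk marks an unadjusted p under 0.05. The 7 marked members lie between -0.64 and 0.97, and the largest positive values belong to members with wide bars, led by IL13RA2 and IL7.

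The ligand with the lowest unadjusted p was CX3CL1 (chr2:59022794-59032095, CanFam3.1), which encodes fractalkine, a membrane-bound chemokine that can be shed. Its level was 17.3, 16.8 and 15.0 CPM in gas 1, 2 and 3, and 13.4, 13.2 and 12.4 CPM in dCAMP 1, 2 and 3. Every dCAMP library was below every gas library, and gas 3 was the nearest of the controls. The log2 fold change was -0.33 ± 0.11 (SE), with an unadjusted p of 0.0190 and an adjusted p of 0.221 by edgeR's quasi-likelihood test. It stayed between -0.44 and -0.31 with each library left out, and its adjusted p over all fits ran from 0.00103 with voom to 0.502 without dCAMP 3. Its unadjusted p was over 0.05 without gas 2 and without each dCAMP library. CX3CR1, its receptor, had no counts.

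CXCL8 (chr13:62435035-62438354), the neutrophil chemoattractant interleukin-8, had the largest difference among the ligands tested. It was at 10.5, 21.3 and 32.9 CPM in gas 1, 2 and 3, and at 44.2, 36.5 and 39.0 CPM in dCAMP 1, 2 and 3. The groups did not overlap, but the gas libraries differed among themselves by more than gas 3 differed from the dCAMP libraries. The log2 fold change was 0.89 ± 0.38 (SE; unadjusted p = 0.0582, adjusted p = 0.247 by edgeR). It was 0.54 without gas 1 and 1.28 without gas 3, and the adjusted p over all fits ran from 0.000302 with voom to 0.502 without dCAMP 3.

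CXCL16, a transmembrane chemokine that also acts as a scavenger receptor, was the most abundant ligand by FPKM. It was at 45.4, 42.1 and 39.0 CPM in the gas libraries and 36.7, 38.8 and 35.3 CPM in the dCAMP libraries, with a log2 fold change of -0.19 ± 0.10 (SE; adjusted p = 0.291, edgeR). The groups did not overlap, with gas 3 and dCAMP 2 almost level, and the value was -0.29 without gas 3. The receptor gene CXCR6 had no counts. CXCL17, a mucosal chemokine, was at 2.68, 0.874 and 0.829 CPM in gas and 1.14, 0.793 and 1.44 CPM in dCAMP. Gas 1 alone held the high value, and the log2 fold change of -0.36 ± 0.51 (SE) became 0.37 without that library.

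CCL27, the skin chemokine that draws CCR10-bearing T cells, was the only CC ligand with a mean above 1 CPM. It was at 2.48, 1.84 and 2.13 CPM in gas and 1.55, 2.1 and 1.53 CPM in dCAMP, so that dCAMP 2 lay within the gas range. The log2 fold change was -0.31 ± 0.20 (SE; adjusted p = 0.337, edgeR). Its locus overlaps IL11RA, and how the authors counted reads on overlapping genes is not given in the sources used here. The other tested CC ligands, CCL7, CCL25 and CCL28, had log2 fold changes of 0.06, 0.00 and -0.19, each with overlapping groups.

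**Figure D3:**
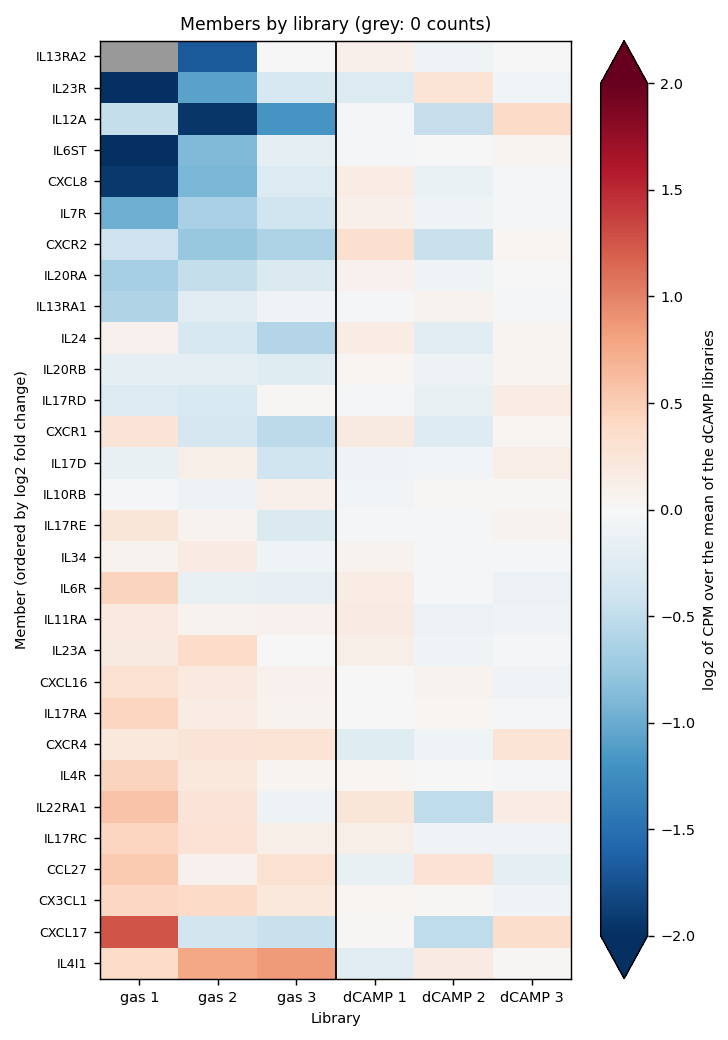
Log2 of the CPM in each library over the mean CPM of the 3 dCAMP libraries, for 30 members with values in the text, ordered by log2 fold change; the colour scale ends at -2 and 2, and grey marks 0 counts. For IL6ST, CXCL8, IL7R and IL20RA the difference from the dCAMP mean shrinks from gas 1 to gas 2 to gas 3.

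Among the chemokine receptors, CXCR2 and CXCR1, the 2 receptors for CXCL8, were detected together. CXCR2 (chr37:24831351-24846387) was at 4.41, 3.46 and 3.83 CPM in gas and at 7.27, 4.29 and 6.0 CPM in dCAMP. The dCAMP 2 library fell within the gas range and the other dCAMP libraries were above it. The log2 fold change was 0.58 ± 0.22 (SE), with an unadjusted p of 0.0347 and an adjusted p of 0.230 by edgeR, which ran from 0.00421 with voom to 0.502 without dCAMP 3. Its unadjusted p was over 0.05 without gas 2, gas 3, dCAMP 1 or dCAMP 3, with upper-quartile factors and on the FPKM values.

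CXCR1 (chr37:24862129-24866069) lies close by on the same chromosome and was at 7.97, 5.30 and 4.66 CPM in gas and 7.57, 5.62 and 6.88 CPM in dCAMP. Its groups overlapped, and the log2 fold change of 0.16 ± 0.23 (SE) was 0.41 without gas 1 and -0.03 without gas 3. The pair are close relatives, and reads on sequence that they share could have been split between them, so the division of counts between CXCR1 and CXCR2 is uncertain. CXCR4, the receptor for CXCL12, was at 1.12, 1.16 and 1.17 CPM in gas and 0.820, 0.910 and 1.17 CPM in dCAMP, with a log2 fold change of -0.24 ± 0.20 (SE).

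IL12A (chr34:26125529-26133546), the p35 subunit shared by interleukin-12 and interleukin-35, had few reads. Its counts were 17, 7 and 12 in gas and 23, 16 and 30 in dCAMP, or 0.367, 0.133 and 0.226 CPM against 0.496, 0.373 and 0.664 CPM. The groups did not overlap in CPM, with gas 1 just below dCAMP 2. The fitted log2 fold change was 0.97 ± 0.39 (SE), with an unadjusted p of 0.0461 and an adjusted p of 0.240 by edgeR. The adjusted p over all fits ran from 0.000853 with voom to 0.997 on the FPKM values. Of the fits without 1 library, the one without gas 1 was alone in giving an unadjusted p under 0.05, with a log2 fold change of 1.31, and the lowest value was 0.69 without gas 2.

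On the FPKM scale the difference in IL12A was not seen. The mean was 0.244 ± 0.0633 FPKM in gas and 0.244 ± 0.0699 FPKM in dCAMP (SD, n = 3 each), and the difference in log2 of FPKM plus 1 was -0.00041. The transcript table divided the gene into a form of 669 bases, with 7, 7 and 12 counts in gas and 0 in each dCAMP library, and a form of 1780 bases, with 10, 0 and 0 counts in gas and 23, 16 and 30 in dCAMP. FPKM divides by transcript length, so the assignment of the same reads to the longer form lowers the value. Whether the cells used different forms was not tested, and IL12B, the partner chain of interleukin-12, had no counts.

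**Figure D4:**
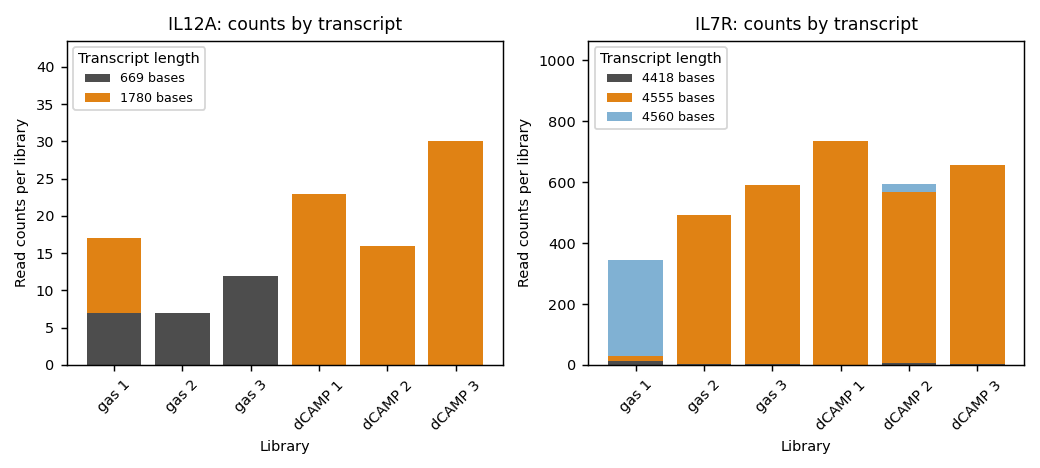
Read counts per library of IL12A and IL7R, stacked by deposited transcript, with each transcript's length in the legend. All IL12A counts of the dCAMP libraries fall on the 1780-base form, and most IL7R counts of gas 1 fall on the 4560-base form while the other libraries use the 4555-base form.

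The other interleukins with a mean above 1 CPM were IL34, IL24, IL23A and IL17D, and none passed the test. IL34, a second ligand of the CSF1 receptor, was at 5.85, 6.27 and 5.28 CPM in gas and 5.87, 5.46 and 5.47 CPM in dCAMP, and its log2 fold change was -0.05 ± 0.12 (SE). IL24, an IL-20 family cytokine, was at 2.55, 1.94 and 1.60 CPM in gas and 2.68, 2.05 and 2.5 CPM in dCAMP, with a log2 fold change of 0.25 ± 0.22 (SE). The groups overlapped for both genes. Without gas 1 and without gas 3 the value of IL24 was 0.42 and 0.06, and that of IL34 was -0.06 and -0.16.

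IL23A, the p19 subunit of interleukin-23, was at 3.0, 3.42 and 2.64 CPM in gas and 2.87, 2.5 and 2.57 CPM in dCAMP, with a log2 fold change of -0.19 ± 0.15 (SE), which was -0.32 without gas 3. IL17D was at 2.42, 2.91 and 2.04 CPM in gas and 2.55, 2.57 and 2.92 CPM in dCAMP, and its log2 fold change of 0.12 ± 0.17 (SE) was -0.04 without gas 3. The locus of IL23A overlaps PAN2 and that of IL24 overlaps FCMR.

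Lower in level were IL7, IL15, IL20, IL11, IL17B, IL29L, IL37 and IL1F10, each with overlapping groups and log2 fold changes from -0.66 (IL11) to 1.04 (IL7). IL7, a lymphocyte growth factor also made by keratinocytes, had 0, 3 and 18 counts in gas and 13, 17 and 13 counts in dCAMP, so its gas libraries ran from no count to within the dCAMP range. The locus of IL37 overlaps IL1A, IL1B and IL36G, and its counts are uncertain for that reason.

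IL7R (chr4:72633528-72668242), the signalling chain of the interleukin-7 receptor, had the lowest unadjusted p of the members. It was at 7.47, 9.36 and 11.2 CPM in gas 1, 2 and 3, and at 15.8, 13.8 and 14.5 CPM in dCAMP 1, 2 and 3. Every dCAMP library was above every gas library, and gas 3 was the nearest. Between the groups the log2 fold change was 0.66 ± 0.17 (SE), with an unadjusted p of 0.00702 and an adjusted p of 0.221 by edgeR. It was 0.50 without gas 1 and 0.76 without gas 3, and the unadjusted p was under 0.05 in all 18 fits. The adjusted p was under 0.05 in 3 of them (DESeq2 on all genes with a count, voom, and without gas 3) and ran from 0.000263 to 0.502.

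The partner chains of IL7R had no counts: IL2RG, the common gamma chain that pairs with it for interleukin-7, and CRLF2, which pairs with it for TSLP. In gas 1, 318 of the 346 IL7R counts were assigned to a transcript of 4560 bases and 16 to one of 4555 bases, while gas 2 and gas 3 had 491 and 589 counts on the 4555-base form and 0 on the other. The dCAMP libraries had 734, 561 and 653 counts on the 4555-base form, and dCAMP 2 had 24 on the other. The gene totals are not changed by this division.

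IL20RA and IL20RB, the 2 chains of the type I receptor for interleukins 19, 20 and 24, were both higher in each dCAMP library than in any gas library. IL20RA (chr1:29506582-29545882) was at 6.46, 7.35 and 8.33 CPM in gas and 10.8, 9.61 and 10.2 CPM in dCAMP. Its log2 fold change was 0.47 ± 0.13 (SE), with an unadjusted p of 0.0116 and an adjusted p of 0.221 by edgeR. It ranged from 0.36 without gas 1 to 0.52 without gas 3, and the unadjusted p was under 0.05 in all 18 fits. The adjusted p ran from 0.00073 with voom to 0.502 without dCAMP 3, and IL20RA and IL7R were the only members with an unadjusted p under 0.05 in every fit. The fits share the same libraries, and the share of all genes that passed in every fit is not given here. In the fit without dCAMP 3 alone, 6.86% of all genes passed.

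IL20RB (chr23:33384057-33421619) was at 118, 117 and 113 CPM in gas and 137, 124 and 139 CPM in dCAMP. Unlike IL20RA, its gas libraries lay close together and dCAMP 2 was the nearest to them. By edgeR the log2 fold change was 0.21 ± 0.08 (SE), with an unadjusted p of 0.0435 and an adjusted p of 0.238 by edgeR, over a range of 0.00508 to 0.532. The unadjusted p was under 0.05 in 4 of 18 fits, and leaving out any 1 library moved it over 0.05. The ligands IL20 and IL24 were detected and IL19 was not.

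IL22RA1, which joins IL20RB for interleukins 20 and 24 and IL10RB for interleukin-22, was at 19.1, 15.3 and 12 CPM in gas and 15.2, 9.05 and 14.3 CPM in dCAMP. Its groups overlapped and the log2 fold change was -0.27 ± 0.25 (SE), with -0.11 without gas 1 and -0.47 without gas 3. IL10RB, a shared chain of the IL-10 family receptors, was at 16.6, 15.8 and 18.1 CPM in gas and 16.3, 17.2 and 17.1 CPM in dCAMP, with a log2 fold change of 0.00 ± 0.10 (SE). The groups overlapped, and IL10RA, the other chain of the interleukin-10 receptor, was at trace level.

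IL6ST (chr2:43214050-43273014) encodes gp130, the signalling chain shared by the receptors for interleukin-6, interleukin-11, LIF and oncostatin M. It was at 34.7, 90.4 and 145 CPM in gas 1, 2 and 3, and at 162, 165 and 172 CPM in dCAMP 1, 2 and 3. The groups did not overlap, the dCAMP libraries were almost level, and gas 1 was far below gas 3. The fitted log2 fold change was 0.89 ± 0.46 (SE; unadjusted p = 0.101, adjusted p = 0.284 by edgeR), and it was 0.49 without gas 1 and 1.37 without gas 3. Its adjusted p over all fits ran from 0.000379 with voom to 0.502.

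Of the chains that pair with gp130, IL6R was at 1.86, 1.23 and 1.23 CPM in gas and 1.51, 1.33 and 1.26 CPM in dCAMP. Its log2 fold change of -0.07 ± 0.22 (SE) was 0.13 without gas 1. IL11RA was at 3.65, 3.36 and 3.41 CPM in gas and 3.58, 2.96 and 3.05 CPM in dCAMP, with a log2 fold change of -0.12 ± 0.13 (SE). The groups overlapped for both genes. LIFR, the receptor chain for LIF, was at 4.88, 7.22 and 12.9 CPM in gas and 11.6, 11.9 and 10.2 CPM in dCAMP, with overlapping groups. Its log2 fold change of 0.42 ± 0.34 (SE) was 0.14 without gas 1. OSMR, the oncostatin M receptor chain, was at 31.3, 29.0 and 32.8 CPM in gas and 34.1, 34.6 and 33.9 CPM in dCAMP. Its groups did not overlap, and the log2 fold change was 0.14 ± 0.10 (SE; unadjusted p = 0.186 by edgeR). IL31RA, with which OSMR forms the interleukin-31 receptor, had no counts.

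The 2 chains of the type II receptor for interleukins 4 and 13 lay on opposite sides. IL13RA1 was at 106, 138 and 153 CPM in gas and 156, 168 and 157 CPM in dCAMP, with a log2 fold change of 0.28 ± 0.14 (SE; adjusted p = 0.283, edgeR). IL4R was at 49.4, 41.8 and 37.6 CPM in gas and 37.1, 36.2 and 35.2 CPM in dCAMP, with a log2 fold change of -0.25 ± 0.13 (SE; adjusted p = 0.278, edgeR). For both genes the groups did not overlap, gas 1 was the farthest and gas 3 the nearest to the dCAMP libraries. Without gas 1 the log2 fold changes were 0.12 for IL13RA1 and -0.15 for IL4R, and without gas 3 they were 0.35 and -0.38.

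IL13RA2, a decoy receptor that binds interleukin-13, showed the widest spread of all members tested. Its counts were 0, 54 and 173 in gas and 163, 132 and 147 in dCAMP, or 0, 1.03 and 3.26 CPM against 3.52, 3.08 and 3.25 CPM. Gas 3 lay among the dCAMP libraries, and gas 1 had no count. The fitted log2 fold change of 1.17 ± 1.03 (SE; adjusted p = 0.455, edgeR) depends on the prior count because of that library. The value was 0.59 without gas 1 and 2.51 without gas 3.

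Of the detected IL-17 receptor genes IL17RA, IL17RC, IL17RD and IL17RE, only IL17RD had a higher mean CPM after plasma. IL17RA, the chain shared by the family, was at 123, 101 and 95.5 CPM in gas and 91.6, 93.4 and 88.2 CPM in dCAMP, with a log2 fold change of -0.23 ± 0.12 (SE; adjusted p = 0.278, edgeR). All its dCAMP libraries were below all gas libraries, and the value was -0.13 without gas 1 and -0.35 without gas 3. IL17RC, its partner for interleukins 17A and 17F, was at 25.0, 22.7 and 20.2 CPM in gas and 20.3, 17.8 and 17.8 CPM in dCAMP. Here gas 3 and dCAMP 1 crossed narrowly, and the log2 fold change was -0.28 ± 0.12 (SE; adjusted p = 0.251, edgeR). Without gas 3 it was -0.40 with an adjusted p of 0.0454 by edgeR, over a range of 0.00772 to 0.502 in all fits.

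IL17RE, the partner for interleukin-17C, was at 33.2, 29.4 and 23.1 CPM in gas and 27.2, 27.5 and 29.5 CPM in dCAMP, and its log2 fold change of -0.02 ± 0.15 (SE) was 0.08 without gas 1 and -0.20 without gas 3. IL17RD, known also as a regulator of FGF signalling, was at 3.72, 3.65 and 4.58 CPM in gas and 4.42, 4.06 and 5.00 CPM in dCAMP, with a log2 fold change of 0.17 ± 0.15 (SE). The groups overlapped for both. The ligand genes IL17A, IL17C and IL17F had no counts, and IL17B and IL17D were detected.

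IL23R, the specific chain of the interleukin-23 receptor, was at 0.0648, 0.361 and 0.603 CPM in gas and 0.626, 0.910 and 0.730 CPM in dCAMP. The groups did not overlap, gas 1 had 3 counts and gas 3 had 32 against 29 in dCAMP 1. Between the groups the log2 fold change was 1.03 ± 0.58 (SE; adjusted p = 0.301, edgeR), and it was 0.59 without gas 1 and 1.58 without gas 3. IL15RA, the interleukin-15 binding chain, was at 0.130 to 0.266 CPM in gas and 0.151 to 0.465 CPM in dCAMP.

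IL4I1, a secreted L-amino acid oxidase, was at 0.648, 0.855 and 0.905 CPM in gas and 0.432, 0.560 and 0.509 CPM in dCAMP. Every dCAMP library was below every gas library, and here gas 1, not gas 3, was the nearest. By edgeR the log2 fold change was -0.64 ± 0.23 (SE), with an unadjusted p of 0.0295 and an adjusted p of 0.226 by edgeR, over a range of 0.00431 to 0.502. The unadjusted p was under 0.05 in 12 of 18 fits. The fits over 0.05 included those without gas 2, gas 3, dCAMP 1 or dCAMP 3, and DESeq2 on all genes with a count. The locus overlaps ATF5 and NUP62, and the counts of IL4I1 are uncertain for that reason.

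**Figure D5:**
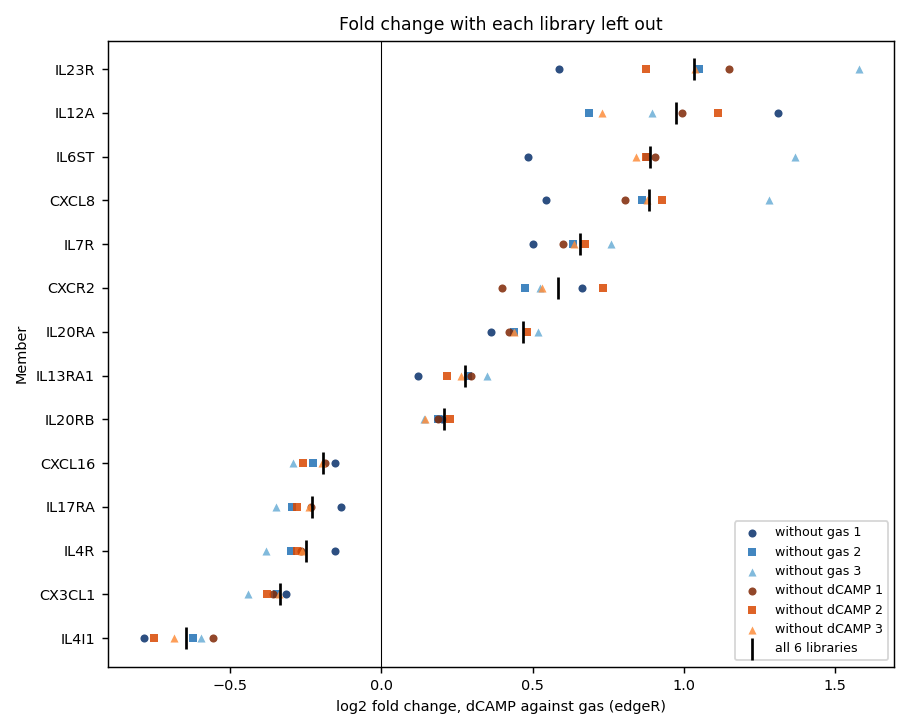
Log2 fold change of dCAMP against gas by edgeR for the 14 members with an unadjusted p under 0.05 or with groups that did not overlap, with all 6 libraries (black bar) and with each library left out (points). IL6ST, CXCL8 and IL23R move most, between the fits without gas 1 and without gas 3, and no member in the plot crosses 0.

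The position of the gas libraries carried through the members less evenly than through all genes. Gas 1 was the farthest of the gas libraries from the dCAMP mean for 24 of 42 members (57.1%), against 74.5% of all genes tested, and gas 3 was the nearest for 19 members (45.2%), against 68.8%. The median absolute log2 ratio to the dCAMP mean was 0.41, 0.28 and 0.28 for gas 1, 2 and 3 over the members with a count, and 0.48, 0.29 and 0.13 over all genes. The SD of log2 CPM plus 0.5 was larger among the gas than among the dCAMP libraries for 29 of 42 members (69.0%), against 81.4% of all genes. These shares are descriptions, and the difference between members and other genes was not tested.

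Summed over the 110 members, the level was 662, 715 and 769 CPM in gas 1, 2 and 3, and 841, 817 and 834 CPM in dCAMP 1, 2 and 3. IL6ST carried much of this difference: without it the sums were 627, 624 and 624 CPM in gas 1, 2 and 3, and 679, 652 and 662 CPM in dCAMP 1, 2 and 3. The sums are carried by abundant members and were not tested, and the median log2 fold change of the members was 0.00.

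Other genes of the pathway were described from 4 lists of 71 genes, of which 48 were tested: NF-kB genes, JAK-STAT genes, related cytokines and receptors, and atypical chemokine receptors and relatives. At an unadjusted p under 0.05, 11 of 48 passed (22.9%, against 20.7% of all genes), 1 higher (STAT4) and 10 lower, with 0 at an adjusted p under 0.05 by edgeR. After adjustment voom called 34 of them (70.8%, against 60.8% of all genes), and edgeR without gas 3 called 20 of 49 (40.8%, against 33.1%). The number at an unadjusted p under 0.05 was 32 of 49 without gas 3 (65.3%, against 49.2% of all genes). It was 0 without gas 2, and 1, 2 and 2 without dCAMP 1, 2 and 3, in fits where 8.25%, 8.23%, 9.61% and 6.86% of all genes passed.

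By the same rule, which 6.81% of all genes tested passed as higher and 13.9% as lower, 0 of the 19 NF-kB genes were higher and 5 lower, with a median log2 fold change of -0.23, and of the 17 JAK-STAT genes tested 1 was higher and 2 lower, with a median of -0.01. Of 10 related cytokine and receptor genes tested 3 were lower, with a median of -0.23, and of the 2 atypical chemokine receptor genes tested 0 passed. The largest differences among those at an unadjusted p under 0.05 were 0.36 ± 0.13 (SE) for STAT4, a transcription factor used by interleukin-12, and -0.50 ± 0.19 for NFKBID, -0.47 ± 0.19 for CLCF1 and -0.43 ± 0.17 for BCL3 (SE). NFKBID and BCL3 encode nuclear IkB proteins and CLCF1 a gp130 cytokine.

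Defining markers of leukocytes, Langerhans cells, fibroblasts and endothelium were without counts. Of 11 leukocyte markers 4 were detected and 5 had no counts, among them PTPRC and CD3E, and their summed level was 5.41 to 7.92 CPM in gas and 6.46 to 8.61 CPM in dCAMP. ITGAM was the only leukocyte marker with an unadjusted p under 0.05, at 2.85 to 3.67 CPM in gas and 4.25 to 4.60 CPM in dCAMP. The Langerhans cell marker CD207 had no counts. The fibroblast markers summed to 1.40 to 1.98 CPM in gas and 1.28 to 1.49 CPM in dCAMP, with DCN, LUM and PDGFRB at 0 and 2 of 5 detected. The endothelial markers summed to 11.8 to 14.7 and 14.1 to 19.3 CPM, with PECAM1 at 0 and 2 of 3 detected, VWF among them at 11.5 to 18.6 CPM over the 6 libraries, and the melanocyte markers to 0.456 to 0.843 and 0.604 to 0.841 CPM, with 1 of 4 detected. MLANA had 4, 0 and 0 counts in gas and 13, 16 and 11 in dCAMP, with an unadjusted p of 0.0102 by edgeR. The filter on low counts kept MLANA only through the dCAMP libraries, where it is higher, so this p-value is not evidence of a difference. TYR and DCT had no counts. The part of these other cell types in the members' values was not tested. In bulk RNA fewer cells of a type and less RNA per cell cannot be told apart.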

How the data were processed

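The deposited gene and transcript tables hold read counts that the authors left without normalization and FPKM values that the authors normalized for length and mapped reads. Per the submitters' processing notes, FastQC 0.11.7, Trimmomatic 0.38, HISAT2 2.1.0, StringTie 2.1.3b and the CanFam3.1 build were used on stranded mRNA libraries. The annotation release is not given in the sources used here. The 12 TPM columns were not used.

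Counts were analysed with edgeR 4.0.16 in R 4.3.3 (TMM factors, filterByExpr, quasi-likelihood test of 3 dCAMP against 3 gas libraries, no covariates, prior count 2), with Benjamini-Hochberg adjustment over 14708 genes. Standard errors were derived from the F statistic. Rows without a gene name held 0.00418% to 0.0264% of counts. Pairs of replicates were compared by chi-square over degrees of freedom, near 1 for sampling noise, which gave 79.6 to 297 among gas and 6.26 to 9.69 among dCAMP libraries, so no library was counted as a copy. On simulated counts for 14708 genes with 200 genes changed 3-fold, edgeR recovered 99.5% at a dispersion of 0.01 and 93% at 0.05. It made 12 and 13 false calls. The simulated libraries had the same dispersion in both groups, unlike the gas and dCAMP libraries here. The simulation therefore checks that the code runs as meant and does not give the power of the comparison in these data.

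Members with a mean of at least 1 CPM, an unadjusted p under 0.05 or groups that did not overlap were given in full; of the other pathway genes, at most 3 per direction at an unadjusted p under 0.05 were named. The members, roles and lists were chosen with earlier results of these data known. Alternatives were upper-quartile and RLE factors, omitting the filter, at least 10 counts in every library, DESeq2 1.42.0 on genes with a count in any or in every library, limma 3.58.1 (voom with sample quality weights, and log2 of FPKM plus 1 or plus 0.1), edgeR's default prior count, the replicate number as a block, and each library left out. Coordinates are those of the transcript table. Protein and promoter sequences were not analysed here. Of the members, 1 is not reported here by name.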

Additional observations from a re-analysis of the deposited data

How the results depend on the processing

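Of 506 values for 30 members under 11 alternatives and 6 fits without 1 library, 486 had the sign of the reported value and 20 the other. The log2 fold change of IL10RB was -0.00475 with RLE factors, -0.0812 with upper-quartile factors, -0.00458 without a filter, -0.0191 at 10 counts in every library and -0.0106 with either DESeq2 fit. Voom gave 0.367 for CXCL17, -0.0939 for IL17D and 0.142 for IL6R, and the FPKM values gave -0.00041 (plus 1) and -0.00277 (plus 0.1) for IL12A. With a library left out, the log2 fold change ran from -0.678 to 0.37 for CXCL17, -0.0334 to 0.406 for CXCR1, -0.0685 to 0.0273 for IL10RB, -0.0378 to 0.232 for IL17D, -0.203 to 0.0779 for IL17RE and -0.215 to 0.131 for IL6R. Members with an adjusted p under 0.05 numbered 1 with DESeq2 on genes with a count in any library, 22 with voom and 0 to 8 with a library left out, where 1.48%, 60.8% and 0.0% to 33.1% of all genes passed. Members at least 2-fold apart with an unadjusted p under 0.05 numbered 1 with DESeq2 on genes with a count in every library, 5 with voom, 1 each on the FPKM scales (plus 1 and plus 0.1) and 1 with the default prior count, where 2.14%, 6.87%, 1.01%, 2.54% and 1.31% of all genes passed, and 0 to 6 with a library left out, where 0.902% to 10.2% passed. Members at an unadjusted p under 0.05 numbered 22 with voom and 2 to 14 with a library left out, and the other pathway genes numbered 36 and 0 to 32, where 64.9% and 6.86% to 49.2% of all genes passed. After adjustment these pathway genes numbered 34 and 0 to 20. The cause was not tested.

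With the replicate number as a block, 5 members in place of 7 had an unadjusted p under 0.05, where 18.9% of all genes passed. The numbers were not taken to pair the libraries. The deviations of same-numbered libraries correlated at 0.130, 0.0237 and 0.0479, and those of the other pairs at -0.139 to 0.0873. Gas 1 and gas 2 correlated best with their same-numbered dCAMP library, and gas 3 correlated best with dCAMP 2. Members with few counts have wide standard errors, and 3 libraries a group limit the precision of all.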

Other observations

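Genes of the same families whose symbols fall outside the naming rule were also measured. IL-15L, an interleukin-15-like gene, was at 2.40, 2.87 and 2.51 CPM in gas and 3.13, 3.99 and 4.80 CPM in dCAMP. All dCAMP libraries were above all gas libraries, with a log2 fold change of 0.61 ± 0.19 (SE), an unadjusted p of 0.0173 and an adjusted p of 0.221 by edgeR's quasi-likelihood test. Its locus overlaps LOC106559902, so the counts are uncertain.

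LOC484907, described as the alpha subunit of the interleukin-27 receptor, was at 24.4, 18.5 and 19.2 CPM in gas and 19.0, 17.3 and 18.3 CPM in dCAMP. LOC478404, described as a beta subunit of the interleukin-10 receptor, was at 14.7, 14.1 and 16.6 CPM in gas and 15.1, 16.2 and 15.7 CPM in dCAMP, and reads could have been shared between it and IL10RB. ACKR3, an atypical receptor that binds CXCL12, was at 42.5, 42.3 and 36.5 CPM in gas and 36.0, 39.3 and 32.4 CPM in dCAMP. The groups overlapped for these 3 genes. TSLP, the epithelial cytokine whose receptor includes IL7R, had 0, 5 and 5 counts in gas and 9, 14 and 10 in dCAMP, and the filter on low counts removed it.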
